A study of Homo sapiens with 2 samples.

Results

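The 10 genes described here, H19, IGF2, KCNQ1OT1, CDKN1C, MEG3, DLK1, PEG3, MEST, GNAS and PLAGL1, are imprinted genes, and they were chosen by name together with the CpG islands that lie within 10 kb of them. They make up 10 of 14208 genes compared. The other 14198 are protein-coding and long non-coding RNA genes whose start lies in a CpG island, called other island genes below. The 10 genes have 17 of the 17128 islands of chromosomes 1 to 22 and X within 10 kb.

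Imprinted genes are expressed from the copy inherited from the mother or from the copy inherited from the father. The choice is set by control regions, stretches rich in CpG whose DNA is methylated on the copy from 1 parent and bare on the other. Upstream of H19 the control region holds sites for CTCF, a zinc-finger protein that binds the unmethylated copy and there acts as an insulator between IGF2 and its enhancers. At KCNQ1OT1 the control region is the promoter of the non-coding RNA itself, and the proteins ZFP57 and YY1 are known to bind motifs in several control regions.

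The data are a map of nucleosome positions made by MNase-seq, in which micrococcal nuclease cuts the DNA between nucleosomes and the protected fragments are sequenced. The cells, grown in normal culture and taken in interphase, were ARPE-19, a human line derived from the pigment epithelium of the retina. There were 2 samples, named as batch 1 and batch 2, in 1 group with no treated or control arm. Per the labels' protocols, digestion took 5 min at 37 °C and fragments of 150 bp were cut from a gel. The deposited list holds 2634347 single-base positions in hg38, with no height or score, and 0.904 positions per kb on chromosomes 1 to 22 and X. The list names neither batch, so no spread between samples can be given, no test was made, and the read depth is unknown. It gives no allele either, so positions on the maternal and the paternal copy cannot be told apart. Intervals below are exact 95% Poisson intervals of the number of positions and cover counting error only. A stretch without a listed position is a stretch without a called position, and how well reads map there or how easily it is cut was not measured. The data hold no expression by which the cell type could be checked.

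The sequences shown come from stretches near H19 and PEG3. Whether they act as control regions in these cells was not measured. The first set, upstream of H19, consists of repeats with a CTCF-like core, searched on both strands as CGNGGNGGC with CCG directly before it and AG directly after. 5 whole matches and 1 match to the core with AG alone, together called the 6 repeats, lie on the minus strand between chr11:1999968 and chr11:2003032. In capitals is the matched part, which is the whole motif in 5 repeats and the core with AG in repeat 2. Each is read 5′ to 3′ on the minus strand.
repeat 1, chr11:1999960-1999989: ggaagtggCCGCGCGGCGGCAGtgcaggct
repeat 2, chr11:2000365-2000394: gaggtggctgCGCGGCGGCAGtgcaggctc
repeat 3, chr11:2000772-2000801: ggaagtggCCGCGTGGCGGCAGtgcaggct
repeat 4, chr11:2002205-2002234: aaaagtggCCGCGCGGCGGCAGtgcaggct
repeat 5, chr11:2002606-2002635: ggaagtggCCGCGCGGCGGCAGtgcaggct
repeat 6, chr11:2003011-2003040: agaagtggCCGCGCGGCGGCAGtgcaggct

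The repeats stand at steps of 406, 406, 1433, 401 and 405 bp from the first to the last, so they form 2 groups of 3 with a wider step between the groups. In a window of 6 kb centred on a start, H19 has 3 whole matches around its canonical start and 2 around the start that its transcripts share most often. Of the 14198 such windows of other island genes, 66 (0.465%) hold at least 1, 1 holds 2 or more and 0 hold 3. The core with AG alone is less specific, found in 9.77% of islands not near the 10 genes. It has 3 more matches further from H19, at chr11:1989123, chr11:1989913 and chr11:2018507, of which 2 are on the plus strand. A match is a description of the letters, and CTCF binding was not measured. CTCF sites are known upstream of H19, so these counts are not independent of the choice of motif.

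The second set lies just downstream of the PEG3 start. AANATGGCG, a YY1-like motif, was searched on both strands. All 8 of its matches within the PEG3 gene and 10 kb each side lie on the plus strand, against the direction of the gene, and inside 1 stretch without positions. 4 of the 7 that lie outside exons of PEG3 are shown, on the plus strand, with the motif in capitals.
PEG3 match 2394 bp downstream of the start, chr19:56838318-56838347: ggtgtcactcAAGATGGCGcctgcgcaatc
PEG3 match 1678 bp downstream of the start, chr19:56839034-56839063: gcccccatcaAAGATGGCGcccaggcgggc
PEG3 match 1318 bp downstream of the start, chr19:56839394-56839423: gcccccatcaAACATGGCGtccaagcgggc
PEG3 match 411 bp downstream of the start, chr19:56840301-56840330: cccggactgcAAGATGGCGgcaccaacgca

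Among the 6-kb windows centred on starts of other island genes, 24.6% hold at least 1 AANATGGCG. Only 3 of those 14198 windows hold 7 or more: the window of ZIM2, a zinc-finger gene that shares its start with PEG3, and those of HCFC1 and TMEM187. These were named after their values were seen. AANATGGCG was likewise chosen as a motif known in control regions, so its count at PEG3 is not independent of that choice.

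At the starts themselves, positions were almost absent. In the window from -200 to +50 bp, where the transcription machinery assembles, 9 of the 10 imprinted genes had no position, and 91.5% of the other island genes had none. That count is near the background. H19, a long non-coding RNA, was the gene with positions there. Its GENCODE canonical start, at chr11:2004552, lies outside any island, with positions 21 bp downstream and 157 bp upstream. Within 500 bp of the start 7 of the 10 had no position, beside 53.7% of the other island genes. Those with any were H19 with 2, MEG3 with 2 and DLK1 with 1. Within 2000 bp the counts ran from 0 at IGF2 and GNAS to 12 at DLK1, and the other island genes had a median of 2 (quartiles 1 and 4).

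**Figure D1:**
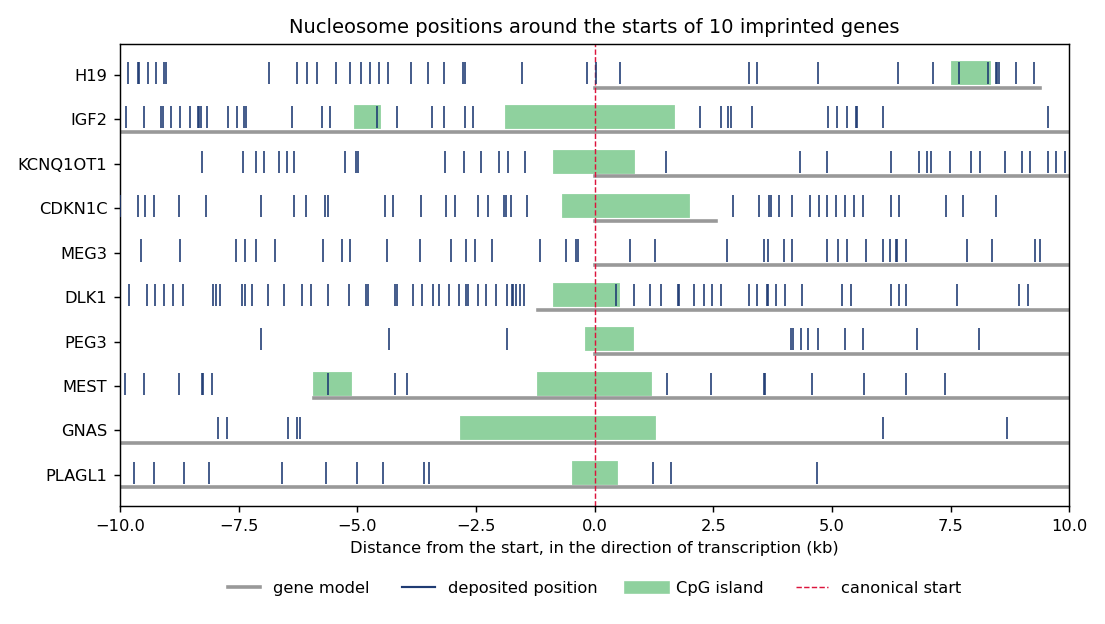
Each line is 1 imprinted gene. Vertical ticks are deposited nucleosome positions, green blocks are CpG islands and grey bars are gene models, by distance from the canonical or MANE Select start in kb, in the direction of transcription. The stretch around the start is empty over 12273 bp at GNAS and over 178 bp at H19, whose start lies outside an island.

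The stretch without positions around the start differed widely in length among the 10 genes. GNAS, which encodes the stimulatory G protein alpha subunit and several other products from alternative promoters, had 12273 bp without a position around its MANE Select start (chr20:58891421). That is the 96.4th percentile among the other island genes, whose median was 2847 bp (quartiles 1574 and 4797 bp). PEG3, a zinc-finger gene expressed from the paternal copy, followed with 5986 bp around chr19:56840726, at the 83.2nd percentile. MEST, which encodes a hydrolase-like protein and is also expressed from the paternal copy, had 5484 bp around chr7:130492085. IGF2, the growth factor gene, had 4783 bp around chr11:2139389. PLAGL1, a zinc-finger transcription factor gene, had 4700 bp around chr6:144008259, and CDKN1C, an inhibitor of cyclin-dependent kinases, 4334 bp around chr11:2885775. KCNQ1OT1 had 2966 bp around chr11:2700003, close to the median of the other island genes. DLK1, which encodes a membrane protein related to Notch ligands, had 1933 bp around chr14:100726892. The shortest were MEG3, a maternally expressed non-coding RNA, with 1096 bp around its canonical start (chr14:100779410), and H19 with 178 bp. These were the 2 genes whose canonical start lies outside an island.

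Imprinted genes often use several promoters, so all annotated starts were counted as well. The 10 genes have 192 distinct transcript starts, many of them close together, and 168 had no position from -200 to +50 bp, beside 86.2% of all distinct starts of the other island genes. Of the 96 starts inside islands 93 were empty, beside 90.5% for the other island genes, and of the 96 outside islands 75 were empty, beside 80.7%. These counts are near the background. GNAS, with the most starts, had 57 of 59 empty, all 33 of those in islands among them. H19 stood at the other end with 15 of 24 empty. The canonical starts of H19 and MEG3 are far from the start that their transcripts share most often. For H19, 7 of 31 transcripts begin at chr11:1997842, 6710 bp downstream of the canonical start, and the window there held 0 positions. For MEG3, 9 of 50 transcripts begin inside an island at chr14:100826118, 46708 bp downstream of the canonical start, and that window also held 0. With these starts in place of the canonical ones, all 10 genes were empty at the start. The shared starts were chosen after seeing the data, and other starts of both genes were not empty. Of the distinct starts, 9 of 24 held a position at H19 and 7 of 34 at MEG3.

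The islands near imprinted genes held few positions. The 17 islands span 27.6 kb and held 5 positions, or 0.181 per kb (interval 0.0588 to 0.423), whereas the other 17111 islands held 9243 in 20102 kb, or 0.460 per kb (0.450 to 0.469). Of the 17 islands 13 held no position, and 64.6% of the other islands held none. Islands near the imprinted genes were longer, with a median of 1197 bp against 924 bp, and had a median GC content of 70.2% against 69.4%. Given the density of sequence of the same GC content across the genome, 23.3 positions would fall in the 17 islands, and the observed number was 0.215 of that (0.0698 to 0.502). For the other islands the ratio was 0.498 (0.487 to 0.508). The interval of the imprinted genes includes the ratio of the other islands.

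The lack of positions lay in the long islands. All but 1 of the positions fell in islands of 1 kb or less, and those shorter islands were not sparse as a set. Over 1 kb in length, 10 of 11 islands near imprinted genes held no position, and 57.9% of other islands of that length held none. The 11 islands together held 1 position in 23.1 kb, which is 0.0516 of the number given by GC content (0.00131 to 0.288), and other islands of that length held 0.452 of it. Over 2 kb, 6 of 6 were empty across 16.9 kb, which allows up to 0.219 positions per kb, and 44.2% of other islands of that length were empty. The other islands over 2 kb carried 0.393 positions per kb.

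The 6 long empty islands belong to 4 genes. The longest spans 4087 bp (chr20:58888598-58892684) and holds the MANE Select start of GNAS. The GNAS locus has another 2, at chr20:58853970-58856184 and chr20:58840081-58842098, so all 3 of its islands were empty. The IGF2 island of 3533 bp (chr11:2137722-2141254) covers the MANE Select start of the gene. That of CDKN1C (chr11:2883794-2886445) covers most of this short gene, and the gene body of 2.56 kb held 0 positions. At MEST the island of 2372 bp (chr7:130490899-130493270) covers the MANE Select start.

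Several shorter islands were also empty, and which of them are control regions was not measured. The KCNQ1OT1 island (chr11:2699181-2700857) held 0 positions, as did both islands inside MEG3 (chr14:100825707-100826372 and chr14:100827091-100828287). The PEG3 island (chr19:56839916-56840916) and both islands of PLAGL1 (chr6:144007780-144008710 and chr6:144063758-144064781) held 0 as well. The 5 positions that did fall in islands were spread over 4 of them. 2 lay in the island within the H19 gene (chr11:1996230-1997023), at 1996263 and 1996879. The island 5′ of the main IGF2 island (chr11:2143906-2144442) held 1, at 2143972. DLK1 held 1, at chr14:100727344 near the downstream edge of its island (chr14:100726037-100727400). The fifth was in the upstream MEST island (chr7:130486177-130486960), at 130486458. It was the only one of the 5 more than 200 bp from an island edge.

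Going outwards from the islands, positions became more frequent at the edge. The interior, more than 200 bp inside the edge, held 1 position in 20.8 kb, or 0.0481 per kb (interval 0.00122 to 0.268). The border, within 200 bp of the edge on either side, held 10 in 13.6 kb, or 0.735 per kb (0.353 to 1.35). The shore, from 200 to 2000 bp outside, held 92 in 61.2 kb, or 1.50 per kb (1.21 to 1.84). In all other islands the values were 0.411, 0.647 and 0.973 per kb. The interval of the border included the value of other borders, whereas that of the interior lay below and that of the shore above the other islands. The chromosome 11 islands carried the shore value: without them it was 41 positions in 39.6 kb, or 1.04 per kb (0.743 to 1.40), an interval that includes the other shores. The interior without them was 0.0754 per kb (0.00191 to 0.420), again with the value of other interiors inside the interval. The log2 ratio of border to interior was 3.42 for the imprinted genes, resting on a single interior position, and 0.65 for the other islands. Shores differed among the genes. That of DLK1 was the densest with 19 positions, or 5.28 per kb, and those of the MANE Select island of GNAS and of the upstream PLAGL1 island held 0.

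**Figure D2:**
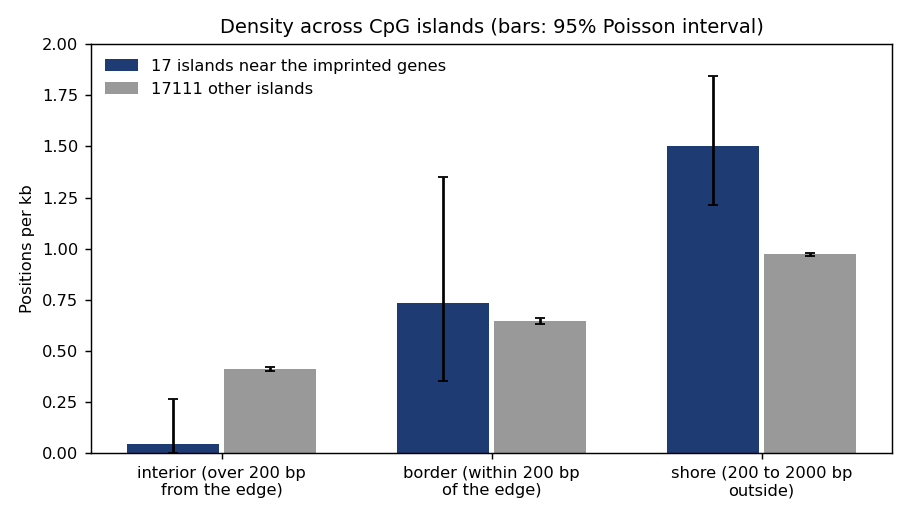
Positions per kb in the interior, border and shore of the 17 islands near imprinted genes (dark) and of 17111 other islands (grey), with exact 95% Poisson intervals. The interior stands at 0.0481 against 0.411 per kb and the shore at 1.50 against 0.973 per kb, and the border intervals overlap.

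The islands were also searched for motifs. The motifs were picked because they are known at imprinted control regions, so the counts are not independent of that choice. TGCCGC, the ZFP57 motif, was found in 15 of 17 islands, on either strand, and in 65.9% of the other islands. Of the other islands over 1 kb, 79.7% held it. Since longer islands hold more matches, density is the fairer measure, and it was 1.81 against 1.24 matches per kb. The downstream PLAGL1 island was the richest, with 6.44 per kb, and that of KCNQ1OT1 had 3.58. The islands without a match were that of H19 and the first of GNAS. The CTCF-like repeat motif occurred in 2 of 17 islands, those of CDKN1C and the upstream PLAGL1 island, and in 0.538% of the others. AANATGGCG was found in 1 of 17, the PEG3 island, and in 7.56% of the others. A match to the CTCF consensus motif was found in 0 of 17 and in 1.61% of the others.

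The PEG3 motifs shown above can be set beside the positions. The empty stretch of 5986 bp runs from chr19:56836582 to chr19:56842568 and is the longest within the gene and 10 kb each side. It holds the island, 8 of 8 AANATGGCG and 11 of 13 TGCCGC of that region. The matches lie up to 3940 bp downstream of the start, so the empty stretch extends beyond the island into the first part of the gene.

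The region upstream of H19 was examined because several CTCF sites are known there. The window from 2 to 5 kb upstream of the canonical start (chr11:2006553-2009552) held 9 positions (interval 4.12 to 17.1). Other island genes had a median of 2 in the same window (quartiles 1 and 4), and 4.09% had 9 or more. At the density of the surrounding 1 Mb 4.74 would fall in the H19 window, and 5.15 by its GC content, and the interval includes both. The positions lay at 2007280, 2007322, 2007730, 2008072, 2008428, 2008906, 2009093, 2009278 and 2009472. The last 4 stood in a row at steps of 187, 185 and 194 bp, close to the usual distance between neighbouring nucleosomes. This window held 0 of the CTCF-like repeats.

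The repeats lie downstream of the canonical start and upstream of the start that H19 transcripts share most often, called the shared start below. Counted from the shared start, the window from 2 to 5 kb upstream (chr11:1999843-2002842) held 5 of the 6 repeats and 3 positions (interval 0.619 to 8.77). Of the other island genes, 65.9% had 3 or fewer. In the 3065 bp from the first to the last repeat there were 2 positions, at 2001125 and 2001291, where 4.84 would fall at the density of the surrounding 1 Mb. The interval of 0.242 to 7.22 includes that number. Both positions lie in the wider step between the 2 groups of repeats, 166 bp apart.

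The distance from a repeat to the nearest position ranged from 117 to 1328 bp. It was 117 bp at repeat 1, 523 bp at repeat 2 and 340 bp at repeat 3. For repeats 4, 5 and 6 it was 927, 1328 and 984 bp, because these lie in the longest stretch without positions around H19, 2717 bp from 2001291 to 2004008. No position fell within any of the 6 repeats, but each is only 30 bases long as shown. At the surrounding 1.58 positions per kb, stretches that short would mostly hold none, so nothing is concluded from it.

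**Figure D3:**
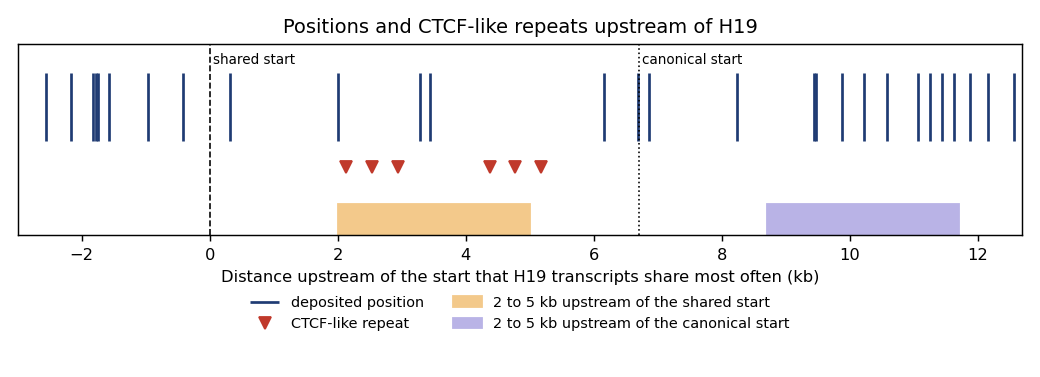
Deposited positions (blue ticks) and the 6 CTCF-like repeats (red triangles) by distance in kb upstream of the start that H19 transcripts share most often. Dashed and dotted lines mark the shared and the canonical start, and shaded bars the windows 2 to 5 kb upstream of each, which hold 3 and 9 positions.

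The position at 2001291 is also the only one in the 300 bases around an H19 start in the RefSeq promoter entries, from 250 bases before to 50 after it. That start is neither the canonical nor the shared start of H19. The stretch is shown here because the position is among the 2 that lie in the wider step between the 2 groups of repeats. The sequence is that of the minus strand, it equals the RefSeq promoter entry for hg38, and the capital marks the called base, number 226 from the 5′ end.
H19 RefSeq start, chr11:2001217-2001516: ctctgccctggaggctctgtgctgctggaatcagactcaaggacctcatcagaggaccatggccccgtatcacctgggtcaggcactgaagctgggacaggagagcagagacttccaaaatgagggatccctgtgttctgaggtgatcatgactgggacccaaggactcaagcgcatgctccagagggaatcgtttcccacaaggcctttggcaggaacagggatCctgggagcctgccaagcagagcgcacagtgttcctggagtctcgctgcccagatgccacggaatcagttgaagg

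Its GC content of 57.7% is below that of the islands. The called base is the edge of the 2717-bp empty stretch.

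Over the whole gene and 10 kb each side, 8 of the 10 imprinted genes carried more positions per kb than their surroundings. Among the other island genes 5092 of 14100 did. For gene bodies alone it was 5 of the 10 imprinted genes, with a median log2 ratio of 0.033, beside -0.30 for the other island genes. How many of the other island genes lay above 0 for bodies alone was not counted. DLK1 had 85 positions, or 2.61 per kb (interval 2.09 to 3.23), against 1.38 in the rest of the surrounding 1 Mb, which is 1.90-fold. CDKN1C had 48, or 2.13 per kb (1.57 to 2.82), against 1.30, which is 1.65-fold. IGF2 had 117, or 2.37 per kb (1.96 to 2.85), against 1.57, which is 1.52-fold. These 3 of 10 genes were more than 1.5-fold denser, and 8.05% of the other island genes were. None of the 10 was more than 1.5-fold sparser, beside 27.4% of the other island genes. On the log2 scale the median ratio was 0.30 for the imprinted genes and -0.21 for the other island genes.

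Not all of these values are firm. IGF2 fell to 0.54 on the log2 scale with an expectation from GC content and to 0.48 with positions under 100 bp apart merged, both under the 1.5-fold line. With flanks of 20 kb DLK1 alone stayed above it.

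The other 7 genes lay closer to their surroundings. PEG3 had 53 positions, or 1.05 per kb (0.784 to 1.37), against 0.764 around it. PLAGL1 had 132, or 0.915 per kb (0.765 to 1.08), against 0.725. At these 2 genes the interval lay just above the surrounding density. H19 had 55, or 1.87 per kb (1.41 to 2.44), against 1.58. MEG3 had 164, or 1.61 per kb (1.38 to 1.88), against 1.41. MEST had 41, or 1.02 per kb (0.730 to 1.38), against 0.945. The intervals of these 3 included the surrounding density. MEST turned to a log2 ratio of -0.25 with 20 kb flanks and to -0.14 in the gene body, and H19 to -0.042 in the gene body. KCNQ1OT1 carried 142 positions, or 1.16 per kb (0.975 to 1.36), against 1.57, a log2 ratio of -0.44. With the GC expectation that ratio was -0.047, and that of MEG3 went from 0.19 to -0.093. GNAS, at 0.896 against 1.04, was also lower, but its interval (0.713 to 1.11) included the surrounding density.

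**Figure D4:**
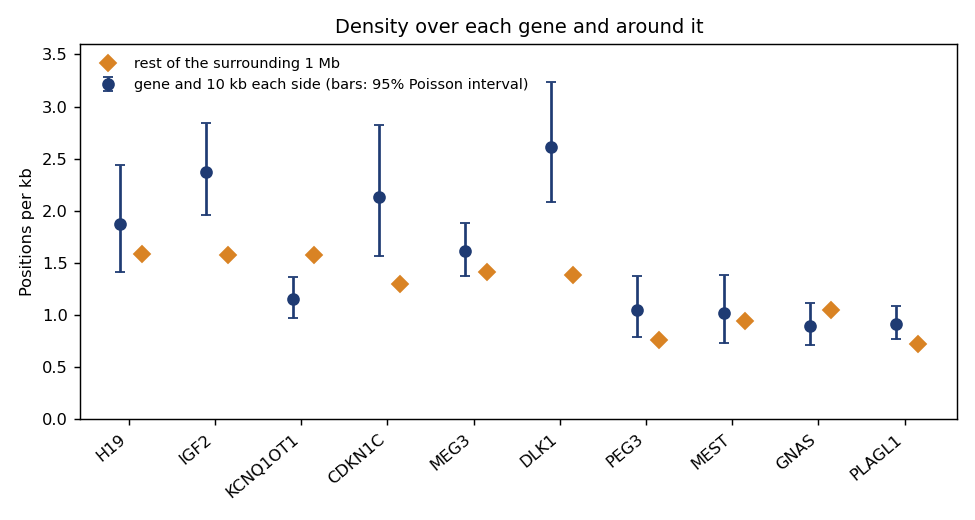
Positions per kb over each imprinted gene with 10 kb each side (circles, exact 95% Poisson intervals) and over the rest of the surrounding 1 Mb (diamonds). The circles of IGF2, CDKN1C and DLK1 lie more than 1.5-fold above their diamonds, and that of KCNQ1OT1 lies below.

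The positions that made CDKN1C dense lay entirely in its flanks. Its body held 0, and the 10 kb on either side held 26 and 22. At DLK1, 40 positions lay in the 10 kb upstream, 27 in the body (2.16 per kb) and 18 in the 10 kb downstream. IGF2 had 59 in the body (2.02 per kb), of which 53 fell in introns. Its flanks of 10 kb held 41 upstream and 17 downstream. PEG3 had 38 positions in its body of 30.7 kb, or 1.24 per kb. Its flanks of 10 kb held 12 downstream, a similar density, and 3 upstream.

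Within the gene bodies, bases that are exon in any annotated transcript carried 193 positions, or 1.09 per kb, and introns 372, or 1.21 per kb. Single genes departed from this in opposite directions. GNAS had 6 positions in 22.2 kb of exon, or 0.270 per kb, and 56 in 49.3 kb of intron, or 1.14 per kb. H19 had 10 in 3.46 kb of exon, or 2.89 per kb, and 4 in 5.92 kb of intron, or 0.675 per kb. The H19 introns include the repeats described above.

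The clusters also lie in dense chromosomal surroundings. The rest of the 1 Mb around the chromosome 11 and 14 genes carried 1.30 to 1.58 positions per kb, above the 75th percentile of the other island genes (1.25 per kb). Around PLAGL1 and PEG3 it was 0.725 and 0.764. H19 and IGF2, KCNQ1OT1 and CDKN1C, and DLK1 and MEG3 are neighbours whose reference windows overlap, so the 10 values are not independent. The DNA between H19 and IGF2 carried 215 positions in 125 kb, or 1.73 per kb (1.50 to 1.97). Between KCNQ1OT1 and CDKN1C it was 371, or 2.03 per kb (1.82 to 2.24), and between DLK1 and MEG3 63, or 1.53 per kb (1.18 to 1.96).

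**Figure D5:**
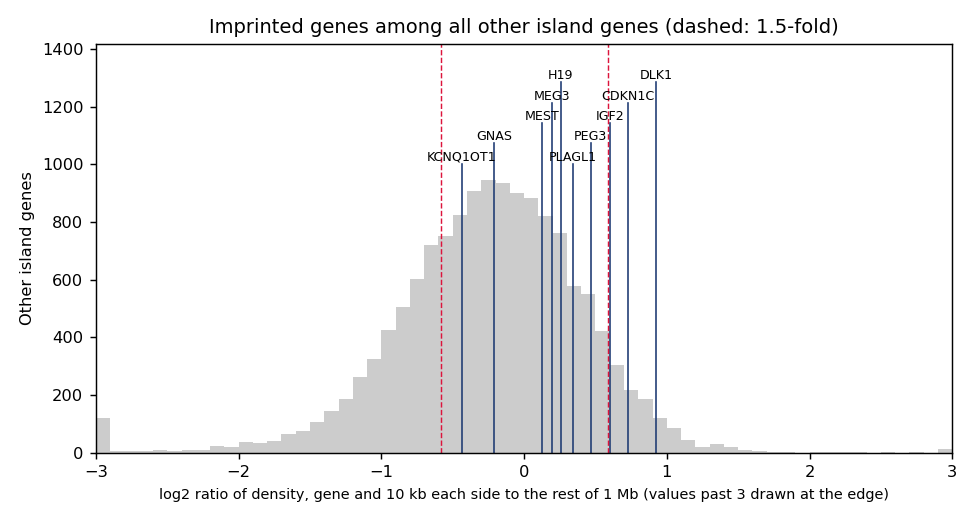
Histogram of the log2 ratio of density, gene with 10 kb each side to the rest of the surrounding 1 Mb, over 14100 other island genes. Lines mark the 10 imprinted genes and dashed lines 1.5-fold; 3 lie past the upper dashed line and 0 past the lower.

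In the dense genes, neighbouring positions lay closer together than over the genome. The median distance between neighbours was 199 bp at IGF2, 206.5 bp at DLK1 and 257 bp at CDKN1C, and 549 bp over the genome. At PEG3, GNAS, MEST and PLAGL1 it was 509.5, 536, 561 and 596 bp. Of the 909 neighbour distances over the 10 genes and flanks, 196 (21.6%) were 150 to 220 bp, beside 14.2% over the genome. The counts were 41 of 116 at IGF2, 27 of 84 at DLK1 and 14 of 47 at CDKN1C, so most distances there were of other lengths. Distances under 60 bp are too short for separate nucleosomes on 1 DNA copy. They numbered 20 of 116 at IGF2, 11 of 84 at DLK1 and 5 of 47 at CDKN1C. Over the 10 genes and flanks they made up 91 of 909, beside 8.998% over the genome. A denser stretch has shorter distances by construction. The longest regular row was 7 positions downstream of CDKN1C, from chr11:2880127 to chr11:2881230, at steps of 187, 187, 181, 188, 180 and 180 bp. IGF2 had a row of 6 upstream of the gene, from chr11:2159600 to chr11:2160558, and DLK1 one of 5, from chr14:100717451 to chr14:100718209. The longest stretch without positions was the one around the island at the start in 6 of 10 genes: IGF2, CDKN1C, DLK1, PEG3, MEST and GNAS. At KCNQ1OT1 it was a stretch of 9186 bp away from any island, from chr11:2603102 to chr11:2612288. Where the longest stretch lies was not counted for the other island genes, of which 66.4% had over 2 kb without a position around the start.

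The same measures were taken for 34 other genes known to be imprinted in human tissue. The start lies in an island in 24 of the 34, whereas it does so in all of the other island genes. Of the 34, 33 had no position from -200 to +50 bp of the start, beside 91.5% of the other island genes. SNRPN, named after its value was seen, had 1. In body and flanks 2 of 34 were more than 1.5-fold denser than the surrounding 1 Mb, beside 8.05% of the other island genes. More than 1.5-fold sparser were 5 of 34, beside 27.4%. The median log2 ratio was -0.27, beside -0.21. The denser genes, MAGEL2 with 3 positions and NDN with 4, lie in a stretch of chromosome 15 with 0.0594 and 0.0603 positions per kb around them, so their ratios rest on single positions. The sparser were NNAT, NAP1L4, UBE3A, INPP5F and NAA60, from 0.445 against 0.973 per kb at NNAT to 0.490 against 0.842 at NAA60. UBE3A, in the same sparse stretch of chromosome 15, had 6 positions. A ratio above 0 was found in 15 of the 34, beside 8 of the 10 genes described first and 5092 of 14100 other island genes. Several of the 34, such as ZIM2, HYMAI and MESTIT1, overlap the 10 genes and share positions with them; these 3 were named for that overlap.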

How the data were processed

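The deposited list of positions has no score or weight, and each single-base interval was counted once. Alignment with Bowtie2 to hg38 is given in the submitters' processing notes, while the caller, fragment filter, threshold and any pooling of batches are not given in the sources used here. Genes came from GENCODE 44 (MANE Select start, else canonical). CpG islands were found by a running score of +17 for CpG and -1 otherwise, kept over 500 bp with at least 55% GC and a CpG ratio over 0.65. A gene with 10 kb each side was compared with the rest of the 1 Mb centred on it, with 0.5 added to each count, and called past 1.5-fold; 98 island genes with under 250 kb of reference were left out. The GC expectation used 2% bins of 200-bp windows. Because there are no replicates, values are descriptions without tests. All 10 genes are named, of other imprinted genes those past 1.5-fold and those with at least 2 positions at the start, and every position 2 to 5 kb upstream of H19. SNRPN, ZIM2, HYMAI, MESTIT1, HCFC1 and TMEM187 fall outside that rule. Genes, lists and motifs were chosen with earlier results of these data known. Scripts were tested on simulated data and used Python 3.11.15, numpy 2.4.6, scipy 1.17.1, pandas 2.3.3, numba 0.67.0 and matplotlib 3.10.9.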

Additional observations from a re-analysis of the deposited data

Results flagged for a closer look

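A further 1388 deposited positions, 0.0527% of the list, lay on 12 sequences other than chromosomes 1 to 22 and X, and entered no comparison. They are listed because they were not analysed and exceed 3 counts, the upper limit for a count of 0. How many positions these sequences should hold was not estimated.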

How the results depend on the processing

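Of 95 alternative values for 20 results, 79 stayed within their counting error, or within 1.5 times for a count, 15 moved and 1 reversed. The reversed value was the log2 ratio of CDKN1C, -2.76 for the gene body only, where 0 positions make it depend on the 0.5 added. Against the whole chromosome KCNQ1OT1 and GNAS changed sign, to 0.40 and 0.17. The number of imprinted genes more than 1.5-fold denser than their surroundings was 2 for gene bodies only (DLK1 and PEG3), 1 with 20 kb flanks, 5 against the whole chromosome and 1 without chromosome 11 (DLK1 in the first and the last), and the number sparser was 2 for gene bodies only (KCNQ1OT1 and CDKN1C). Counted from the shared start, 3 positions lay 2 to 5 kb upstream of H19. The shared starts, the other islands over 1 kb or with a start, and leaving out chromosome 11 were chosen after seeing the data. No paired analysis was possible because the list names no batch. Neither depth nor spread between batches is known, so counts under about 10 limit every island value.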
